A study of Mus musculus with 18 samples.

Results

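Oxidative phosphorylation (OXPHOS) is carried out by 5 protein complexes of the inner mitochondrial membrane, and the genes counted here that encode their subunits number 98 of 49315. They were chosen by symbol through the GENCODE M21 annotation. The choice took the Nduf subunits of complex I, Sdha to Sdhd, the Uqcr genes, the Cox4 to Cox8 families and the Atp5 genes, together with the 13 protein-coding genes of the mitochondrial genome. Pseudogenes and the Ndufaf assembly factors were left out. Of these members 85 lie on 19 nuclear chromosomes and 13 on the mitochondrial chromosome.

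RNA was sequenced from bone marrow-derived macrophages (BMDMs), which are grown from mouse femoral marrow in medium conditioned by L929 cells. The groups labelled HDAC3 KO come from M-HDAC3-/- mice, in which Cre expressed from the Lyz2 locus in myeloid cells removes a floxed part of Hdac3, and those labelled WT come from HDAC3f/f mice, which carry the same floxed allele without the deletion. BMDMs were left without treatment, or were cocultured for 45 min with K562 cells, a human leukemia line, and kept for 5 h after these had been washed away. The K562 cells were either apoptotic cells (ACs), exposed to UV-B for 15 min and used after 2 h, or non-apoptotic cells (NACs). The 6 groups hold 3 biological replicates each, 18 libraries in all, and the study used 3 animals per group. The labels do not say whether the same animals supplied the treatments of a genotype.

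Complexes I, III and IV pass electrons to oxygen and pump protons out of the matrix, complex II feeds electrons in from succinate without pumping, and complex V, the ATP synthase, uses the returning protons to make ATP. Complexes I, III, IV and V are mosaics of subunits made in the cytosol and subunits made inside the mitochondrion, whereas every subunit of complex II is nuclear. Mitochondrial mRNAs are cut from long transcripts of a small circular genome, so their levels are set by a polymerase and by RNA-processing proteins that are themselves nuclear products. In macrophages the activity of this machinery is known to change with activation state and with the load taken up during efferocytosis.

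Total counts on genes ranged from 4704491 to 26421267 per library. CPM here means a gene's count divided by the TMM-scaled total of its library, and values are per kilobase of transcript where different genes are compared. Hdac3 lay between 3.38 and 48.7 CPM in the libraries labelled WT and between 4.66 and 74.6 CPM in those labelled HDAC3 KO. The ranges overlap, and a count over the whole gene does not show the loss of a single exon, so the genotype labels could not be checked with it and are used here as labels. Macrophage markers were abundant throughout, with a summed level of the 12 listed genes between 10971 and 22685 CPM. The summed level of 12 erythroid genes stayed between 13.0 and 85.8 CPM, with Tfrc, a transferrin receptor that macrophages also express, the highest at a mean of 40.3 CPM. In bulk RNA, fewer cells of a type and less RNA per cell cannot be told apart.

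The sequences that matter for reading the mitochondrial values come first, because 5 of the 13 mitochondrial members are almost identical to pseudogenes on chromosome 1. The stretch below opens mt-Co2 (chrM:7013-7696, plus strand, GRCm38), the gene of a core subunit of cytochrome c oxidase. The same letters open Gm28661 (chr1:24614885-24615565, minus strand), an unprocessed pseudogene, and the 681 bases of that pseudogene's transcript differ from mt-Co2 at 0 positions. The letters are from the GENCODE M21 transcripts and nothing is capitalised because nothing differs.
mt-Co2 and Gm28661, first 60 bases: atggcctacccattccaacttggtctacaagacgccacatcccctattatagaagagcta

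A read from such a stretch fits both places equally well, and a counter that leaves out reads with more than 1 location gives it to neither gene. How such reads were treated is not given in the sources used here. The counts had 2 kinds of mitochondrial gene. mt-Co2 had at most 18 counts in any library, mt-Co3 64, mt-Atp6 8, mt-Atp8 3 and mt-Nd4l 39, whereas mt-Co1 reached 178748 counts and mt-Nd1 40667. Of the words of 50 bases that make up each transcript, 100% in mt-Co2, 99.9% in mt-Co3, 99.5% in mt-Atp6, 98.8% in mt-Nd4l and 98.0% in mt-Nd3 also occur in a gene elsewhere in the genome. The share was 62.2% for mt-Nd4 and 51.1% for mt-Co1, which are covered only in part, 8.19% for mt-Nd2, 7.61% for mt-Nd5, and 0% for mt-Nd1, mt-Cytb and mt-Nd6. The near-empty mt-Atp8 also had 0%, and it overlaps mt-Atp6 by 43 bases. Only annotated transcripts were searched, so 0% does not show that a sequence has no copy elsewhere. mt-Atp8 lies between mt-Co2 and mt-Atp6. Their chromosome 1 matches are Gm28661, from 24614885, and Gm10925, up to 24614651, and bases between annotated genes were not searched. The 7 matching chromosome 1 pseudogenes themselves held at most 49 counts in a library. The values of mt-Co2, mt-Co3, mt-Atp6, mt-Atp8, mt-Nd3 and mt-Nd4l are therefore uncertain, and those of mt-Co1 and mt-Nd4 rest on part of the transcript.

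**Figure D1:**
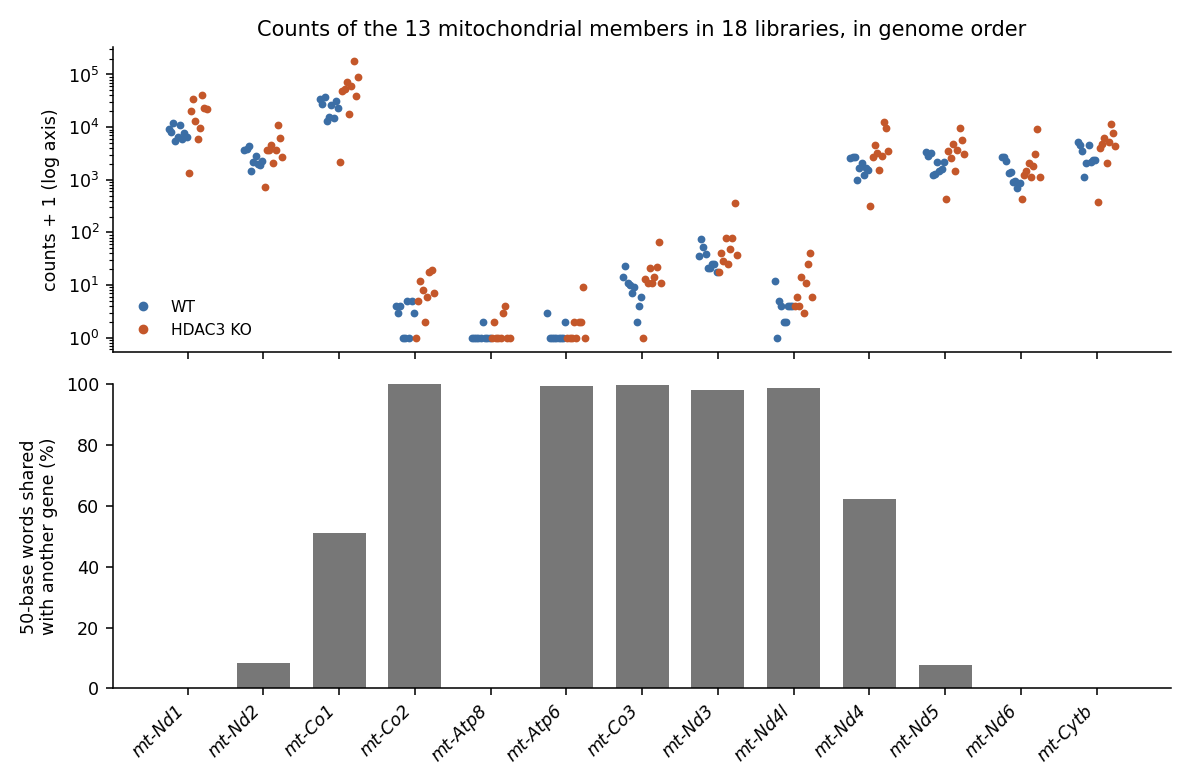
Counts plus 1 of the 13 mitochondrial members in each of the 18 libraries (upper panel, log axis, in the order of the genes on the mitochondrial chromosome) and the percentage of their 50-base words that also occur in a gene elsewhere (lower panel). The 5 genes above 90% hold at most 364 counts in any library, while mt-Nd1, mt-Nd6 and mt-Cytb, at 0%, hold at least 381. mt-Atp8, also at 0%, holds at most 3.

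Of the nuclear members none shared more than 36.7% of its words with another gene, the highest being Atp5g2, a gene of the c-ring of the ATP synthase. The nuclear members stood at very different levels. Complex IV held the most abundant by level per length, Cox6a1 with a mean of 1305 CPM per kb and Cox4i1 with 818, both structural subunits of cytochrome c oxidase. The most abundant pair of each other complex was Atp5e (365) and Atp5h (362) in the ATP synthase, Ndufs8 (238), an iron-sulfur subunit, and Ndufa2 (221, with untreated HDAC3 KO replicate 1 at 461 CPM far above its other libraries) in complex I, Sdhb (137), the iron-sulfur subunit, and Sdhd (44.5), a membrane anchor, in complex II, and Uqcrc1 (129), a core protein, and Uqcrh (128), a hinge protein, in complex III. Among the mitochondrial members mt-Co1, the catalytic subunit of complex IV, was highest at 1544 CPM per kb and took between 37.3% and 70.6% of the members' mitochondrial counts. mt-Nd1 (791), mt-Nd6 (221), mt-Cytb (203), mt-Nd2 (195), mt-Nd4 (127) and mt-Nd5 (92.6) followed. The single-library values of mt-Nd6, mt-Cytb and mt-Nd2 overlapped widely, so these neighbours in the order did not differ beyond their spread. mt-Nd6 is the only mitochondrial member on the other strand and overlaps mt-Nd5 by 14 bases. The strand setting of the counting is not given, so mt-Nd6 counts may include reads from the opposite strand, which was not tested.

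Isoforms restricted to muscle, testis or other tissues were low or absent. Cox7b2 and Cox8c had 0 counts in all libraries, which allows 3 counts over the whole series, and Cox8b had at most 1 count in a library. Cox4i2, the hypoxia-linked form of Cox4i1, lay between 0.07 and 3.27 CPM where Cox4i1 lay between 533 and 2705 CPM. Cox6a2, the heart and muscle form, reached 2.69 CPM against 387 to 1960 CPM for Cox6a1, and Cox6b2, the testis form, reached 4.25 CPM. Cox7a1, the muscle form of Cox7a2, was the most abundant of these and ranged from 1.96 to 24.6 CPM. Ndufa4l2, a paralog of Ndufa4 known for its response to hypoxia, ranged from 0.13 to 8.79 CPM.

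The balance of the mitochondrial and nuclear genomes was read in each library as the summed level per length of the 13 mitochondrial members over that of the 85 nuclear members, on a log2 scale. Because both sums come from the same library, the ratio does not depend on how libraries are scaled. It is a description with no test. In WT libraries it was -1.69, -1.58 and -1.96 without treatment, -2.88, -2.60 and -2.15 after NACs, and -2.18, -1.99 and -2.11 with ACs. Among HDAC3 KO libraries, the untreated ones had -3.66, -1.74 and -1.37. After NACs the values were -1.23, -2.04 and -1.47, and after ACs 0.69, -1.05 and -0.29. All 3 HDAC3 KO libraries with ACs therefore stood above each of the other 15 libraries, and in these sums replicate 1 of that group was the only library above 0. Replicate 1 of the untreated HDAC3 KO group, which also has the fewest counts, was the lowest of all. The paper acknowledges that unequal uptake of K562 cells by the genotypes may have affected its RNA-seq. It aligned reads to the mouse genome alone to keep signal from engulfed human RNA low. The part of K562 RNA in these ratios was not tested.

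In group means the log2 ratio with ACs was -0.22 ± 0.87 (SD, n = 3) in HDAC3 KO and -2.09 ± 0.10 in WT libraries, a difference of 1.88 or 3.67-fold. With NACs the means were -1.58 ± 0.42 and -2.54 ± 0.37, a difference of 0.96, and the groups again did not overlap. Without treatment they were -2.26 ± 1.23 and -1.74 ± 0.20, and the groups overlapped. Exposure to ACs in place of NACs raised the mean ratio by 1.36 in HDAC3 KO libraries without overlap, and by 0.45 with overlap in WT libraries. Against untreated libraries, the ratio with ACs was higher by 2.04 in HDAC3 KO and lower by 0.35 in WT libraries, in both cases without overlap.

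Both sums contributed to the high ratio. The mitochondrial sum was 7672, 3828 and 6283 CPM per kb in HDAC3 KO libraries with ACs, and 2465, 2281 and 1964 in WT libraries with ACs. The nuclear sum was 4766, 7910 and 7692 CPM per kb in the former, below the 11170, 9057 and 8503 of the latter, so that neither sum overlapped between the genotype labels. As a share of all counts, the mitochondrial members took 0.775% ± 0.365 (SD, n = 3) with ACs in HDAC3 KO and 0.307% ± 0.011 in WT libraries, and the nuclear members 0.993% ± 0.184 and 1.51% ± 0.137. These shares come from library totals alone, without the TMM factors.

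**Figure D2:**
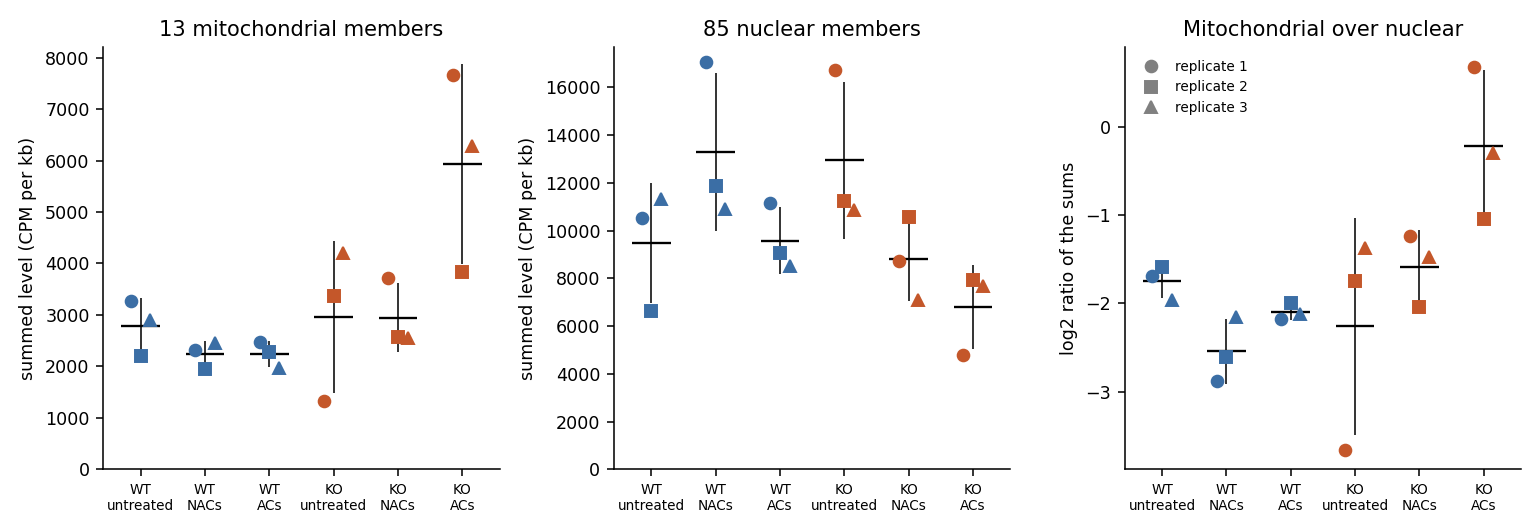
Summed level of the 13 mitochondrial members (left, CPM per kb), of the 85 nuclear members (middle, CPM per kb) and the log2 ratio of the sums (right) by group, where KO stands for HDAC3 KO. Symbols are the 3 replicates, horizontal bars means and vertical bars SD, and the 3 HDAC3 KO libraries with ACs have the highest ratios, from -1.05 to 0.69.

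The choice of mitochondrial genes moved the ratio differently by comparison. Without the 7 mitochondrial members that share over 50% of their words with genes elsewhere, an alternative chosen after the data had been seen, the difference between genotype labels with ACs was 1.80 in place of 1.88, and HDAC3 KO replicate 1 with ACs fell to -0.74. Without mt-Co1 alone that library had -0.56, so in neither case was a library above 0. With NACs this alternative gave 0.55 in place of 0.96, and leaving out mt-Co1 gave 0.57. A smooth correction of each library for GC content and length raised the difference with ACs to 2.73, turned the untreated difference from -0.51 to 0.92 and turned that of ACs against untreated in WT from -0.35 to 0.39. The mitochondrial members have a median GC content of 37.1% and the nuclear members 51.3%, against 50.3% for all genes passing the count filter. With this correction the HDAC3 KO libraries with ACs no longer stood above all others, since replicate 2 had -1.15 and untreated HDAC3 KO replicates 2 and 3 were higher, the latter at 0.005. The genotype labels also overlapped with NACs. With medians of member levels in place of sums, HDAC3 KO replicate 3 with ACs (0.91) lay below HDAC3 KO replicate 1 with NACs (0.94). Across all genes tested, the log2 fold change ran with GC content with r = 0.67 in untreated libraries (12080 genes), r = -0.50 with NACs (11905 genes) and r = 0.08 with ACs (12282 genes). In ACs against untreated it was r = 0.59 in WT and -0.36 in HDAC3 KO libraries. Genes are not independent replicates, and the part of GC content in the ratio was not tested beyond this correction.

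The genotype labels were next compared gene by gene with ACs, to ask which subunits differ in macrophages that have met apoptotic cells. The complex II genes Sdha, for the catalytic flavoprotein, and Sdhd, for a membrane anchor, were higher in HDAC3 KO libraries, as was the mitochondrial mt-Nd4. The accessory subunit genes Ndufa11 of complex I, Cox5b of complex IV and Atp5l of complex V were lower. With edgeR's quasi-likelihood test 6 members passed an adjusted p of 0.05, 3 higher and 3 lower, where 3.75% of all 12304 genes tested were called, 0.788% as higher and 2.96% as lower.

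Sdhd was 75.4, 109.0 and 86.0 CPM in HDAC3 KO libraries with ACs and 31.8, 26.9 and 28.3 CPM in WT libraries with ACs. All 3 of the former lie above all 3 of the latter, and the fold change on the log2 scale was 1.59 ± 0.39 (SE, with an adjusted p = 0.0346). In the other HDAC3 KO groups Sdhd reached 91.4 CPM, in untreated replicate 3.

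Sdha, the subunit that oxidises succinate, was 223.5, 135.9 and 230.3 CPM with ACs in HDAC3 KO and 73.2, 62.1 and 68.0 CPM in WT libraries. The groups did not overlap, and the log2 fold change was 1.47 ± 0.39 (adjusted p = 0.0452). Sdhc, the other membrane anchor, did not pass at 0.84 ± 0.40 (adjusted p = 0.210), nor did Sdhb at -0.51 ± 0.39 (adjusted p = 0.428). Complex II, whose subunits are all nuclear, therefore held members with values on both sides of 0, with 3 of 4 higher and a median of 1.15. With a replicate block in the fit, neither Sdha (adjusted p = 0.077) nor Sdhd (adjusted p = 0.0527) passed.

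Ndufa11, a small membrane subunit of complex I, was 44.4, 70.7 and 79.6 CPM with ACs in HDAC3 KO against 242.8, 221.3 and 204.1 CPM in WT libraries. All HDAC3 KO values lie below all WT values, and the log2 fold change was -1.83 ± 0.40 (adjusted p = 0.0258). Cox5b, a zinc-binding subunit of complex IV, was 151.3, 199.7 and 276.7 CPM against 662.8, 646.4 and 577.1 CPM, again without overlap (log2 fold change -1.65 ± 0.40, adjusted p = 0.0345).

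Atp5l, subunit g of the ATP synthase, was 89.7, 192.0 and 107.5 CPM with ACs in HDAC3 KO against 897.2, 236.9 and 342.5 CPM in WT libraries. Here the WT libraries were spread widely, with replicate 1 far above the other two, and the log2 fold change was -1.95 ± 0.51 (adjusted p = 0.0446). Ndufb4, an accessory subunit of complex I, had a log2 fold change of -1.80 ± 0.57 and Uqcrb, a small subunit of complex III, 1.41 ± 0.44, and neither passed (adjusted p = 0.082 and 0.073).

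mt-Nd4, a proton-pumping subunit of complex I, was the mitochondrial member that passed. Its levels were 476.0, 399.4 and 242.8 CPM in HDAC3 KO libraries with ACs and 127.7, 108.8 and 97.4 CPM in WT libraries with ACs, without overlap (log2 fold change 1.70 ± 0.41, adjusted p = 0.0337). The other 7 mitochondrial members tested were all higher on average without passing, from 0.81 ± 0.42 for mt-Nd2 to 2.01 ± 0.70 for mt-Nd3, and mt-Nd1 came to 1.31 ± 0.41 (adjusted p = 0.070). mt-Nd1 was 1564, 957 and 1478 CPM against 635, 486 and 419 CPM, mt-Cytb 444, 330 and 294 CPM against 227, 150 and 157 CPM, and mt-Nd5 374, 234 and 204 CPM against 154, 102 and 139 CPM. In these 3 genes, as in mt-Nd4, every HDAC3 KO library lay above every WT library.

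mt-Co1 was less even within the HDAC3 KO group, at 6875, 1669 and 5967 CPM against 1584, 2001 and 1528 CPM. Replicate 2 of the HDAC3 KO group lies within the WT range. The same replicate was the highest of all 18 libraries in mt-Nd6, at 382.4 CPM, where the other HDAC3 KO libraries with ACs had 119.0 and 75.4 CPM, and in the uncertain mt-Nd3, at 15.3 CPM.

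As a set, 8 of 8 mitochondrial members tested were higher with ACs in HDAC3 KO libraries, with a median log2 fold change of 1.37. Of 81 nuclear members tested, 25 were higher and 56 lower, with a median of -0.37. The median over all 12304 genes was -0.01. The summed macrophage markers were 17119 to 20214 CPM in HDAC3 KO and 11334 to 13451 CPM in WT libraries with ACs, and their part in the results was not tested. Groups did not overlap for 4 mitochondrial members (all higher) and for 28 nuclear members, 7 higher and 21 lower, or 34.6% of the nuclear members. Of all genes tested 28.3% did not overlap, 14.8% as higher and 13.5% as lower. By complex, the nuclear medians were -0.49 in complex I, 1.15 in II, 0.15 in III, -0.49 in IV and -0.51 in V.

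**Figure D3:**
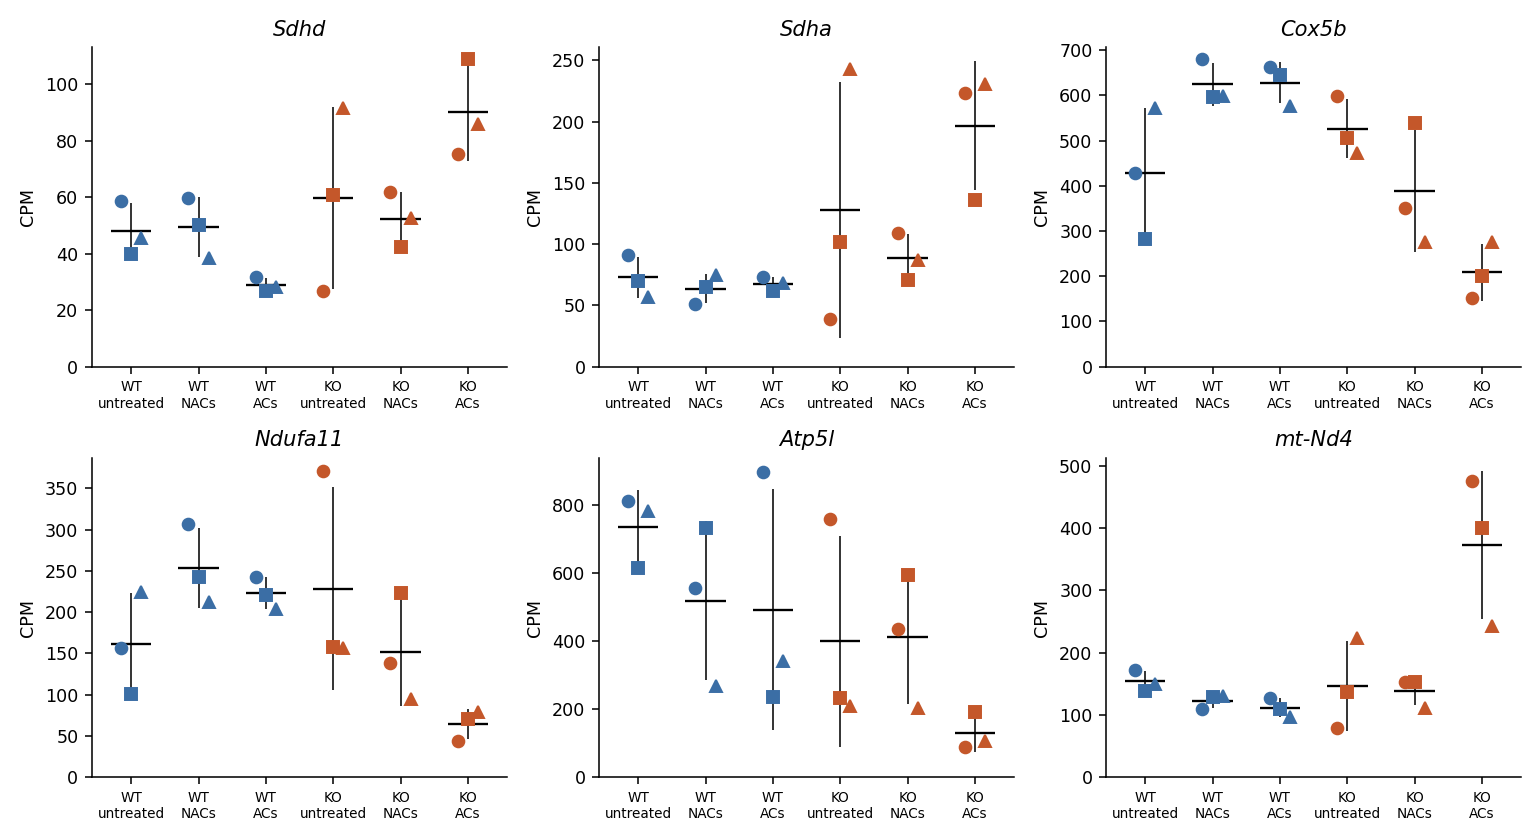
Levels (CPM) of the 6 members called between genotype labels with ACs, in each library by group, where KO stands for HDAC3 KO. Symbols are replicates, horizontal bars means and vertical bars SD, and in each panel the 3 HDAC3 KO libraries with ACs lie on one side of the 3 WT libraries with ACs.

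These calls depend on single libraries. Without HDAC3 KO replicate 1 with ACs 0 members and 0 of 12723 genes passed (1810 at an unadjusted p under 0.05), although the medians kept their signs at 1.2 for the mitochondrial and -0.17 for the nuclear members. Without WT replicate 3 the number of members called was 3 (305 of all genes), and without HDAC3 KO replicate 2 it was 15 (1693 of 12697 genes). Of the 6 fits that each left out a library, Sdha passed in 1 (without HDAC3 KO replicate 2), Sdhd and Atp5l in 3, Cox5b and mt-Nd4 in 4 and Ndufa11 in 5. Log2 fold changes in these fits were 1.39 to 1.72 for Sdha, 1.46 to 1.74 for Sdhd and -2.34 to -1.17 for Atp5l. Among genes not called, Ndufb4 ran from -2.34 to -0.91 and the uncertain mt-Nd3 from 0.64 to 2.44. With the correction for GC content and length the medians were 2.74 and -0.21. Cox5b, Ndufa11 and mt-Nd4 passed in all 11 alternatives that keep every library.

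The upstream sequences of the nuclear members called with ACs are shown to let the reader see whether the higher and the lower genes carry the same promoter words. RefSeq promoter windows, from 250 bases before to 50 bases after the gene start on GRCm38.p6, were found for 69 of the 85 nuclear members. They were searched on both strands for the core word of NRF1, a regulator of respiratory genes, of ETS factors such as GABPA (CCGGAAG), of YY1 (AAGATGG) and of ESRRA (TCAAGGTCA). None of the words overlaps another in the windows shown. Each line gives the 150 bases just before the gene start, 5′ to 3′, with matches in capitals, including words that read on the opposite strand. The NRF1 word reads nearly alike on both strands and is what the capitals mark in Sdha.
Sdha, chr13:74350241-74350390, minus strand: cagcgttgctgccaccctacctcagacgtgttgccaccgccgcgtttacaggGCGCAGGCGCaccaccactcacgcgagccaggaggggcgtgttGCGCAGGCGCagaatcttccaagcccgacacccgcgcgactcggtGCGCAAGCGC
Sdhd, chr9:50603850-50603999, minus strand: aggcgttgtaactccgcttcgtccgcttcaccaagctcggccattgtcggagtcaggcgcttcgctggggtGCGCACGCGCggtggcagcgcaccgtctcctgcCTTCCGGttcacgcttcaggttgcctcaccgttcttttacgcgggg
Ndufa11, chr17:56717612-56717761, plus strand: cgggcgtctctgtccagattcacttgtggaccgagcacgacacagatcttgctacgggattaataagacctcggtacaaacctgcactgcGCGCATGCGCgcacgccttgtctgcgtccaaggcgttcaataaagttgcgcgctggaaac
Cox5b, chr1:36691337-36691486, plus strand: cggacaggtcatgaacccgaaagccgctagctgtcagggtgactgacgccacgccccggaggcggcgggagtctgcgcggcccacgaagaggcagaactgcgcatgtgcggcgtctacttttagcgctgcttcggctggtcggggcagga
Atp5l, chr9:44920743-44920892, minus strand: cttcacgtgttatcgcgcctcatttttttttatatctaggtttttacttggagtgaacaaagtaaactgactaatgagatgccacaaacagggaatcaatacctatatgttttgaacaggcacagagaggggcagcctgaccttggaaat

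The NRF1 word stood 3 times before Sdha, and also before Sdhd and Ndufa11, so it occurred before genes that were higher and before a gene that was lower. Sdhd also had the ETS word in the printed stretch, and Atp5l had it at -212 and at 24 from the gene start, both outside the printed stretch. Sdhd had the ESRRA word at 36, after the start. The printed stretch of Cox5b held no match, which says only that these letters are not there. Over the 69 member windows the NRF1 word occurred in 24.6%, the ETS word in 23.2%, the YY1 word in 15.9% and the ESRRA word in 2.9%. In all 32851 RefSeq windows of the same length the shares were 4.6%, 8.9%, 6.3% and 0.4%.

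With NACs, the comparison of genotype labels asks whether the difference needs apoptotic cells. No member passed, where 0.864% of 11923 genes did (0.537% higher and 0.327% lower), and DESeq2's Wald test called 4, all nuclear and lower. At an unadjusted p under 0.05 there were 24 nuclear members and 1 mitochondrial member, and 2891 of all genes, a share near that of the members. Nuclear members were nonetheless mostly lower in HDAC3 KO libraries, 68 of 81 with a median of -0.52 against a median of -0.003 over all genes, and for 32 of them, all lower, no HDAC3 KO library reached a WT library, against 26.9% of all genes tested in either direction and 11.9% as lower. The nuclear median was -0.23 without WT replicate 1 and -0.22 with the correction for GC content and length. The lowest was the complex I subunit Ndufa2 at -1.21 ± 0.35 (adjusted p = 0.080), and the highest Ndufs1, the largest iron-sulfur subunit of complex I, at 0.64 ± 0.36 (adjusted p = 0.26). The mitochondrial members had a median of 0.23, and 7 of 9 were higher. That median was 0.10 (5 of 8 higher) without HDAC3 KO replicate 1 and 0.40 without HDAC3 KO replicate 3. Sdha came to 0.52 ± 0.32 and Sdhd to 0.12 ± 0.32. Without WT replicate 2, 16 nuclear members passed, 3 higher and 13 lower, but so did 3121 of 12663 genes. The summed B cell markers were 13.1 to 22.4 CPM in HDAC3 KO and 25.7 to 40.9 CPM in WT libraries with NACs, and their part in the result was not tested.

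Whether the genotype difference with ACs differs from that with NACs was tested as an interaction. No member passed, where 0.0765% of 13076 genes did, 0.0306% higher and 0.0459% lower. DESeq2's Wald test called 4 nuclear and 2 mitochondrial members, all higher. At an unadjusted p under 0.05 there were 12 nuclear and 4 mitochondrial members, and 2620 of all genes, a share no lower than that of the nuclear members. The nearest were nuclear, Ndufa1 at 1.85 ± 0.53 (adjusted p = 0.077) and Uqcrb at 1.80 ± 0.51 (adjusted p = 0.078), and Sdhd came to 1.55 ± 0.45 (adjusted p = 0.083). All 10 mitochondrial members tested, the uncertain mt-Co3 and mt-Nd4l among them, had a positive value with a median of 1.14. The median was 0.15 for the 82 nuclear members and 0.06 for all genes. The nuclear median was -0.03 without WT replicate 1 with NACs and -0.06 without WT replicate 2 with ACs. It was -0.04 without HDAC3 KO replicate 3 with ACs and 0.38 without HDAC3 KO replicate 2 with NACs. The calls with ACs are thus not shown to be absent with NACs.

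**Figure D4:**
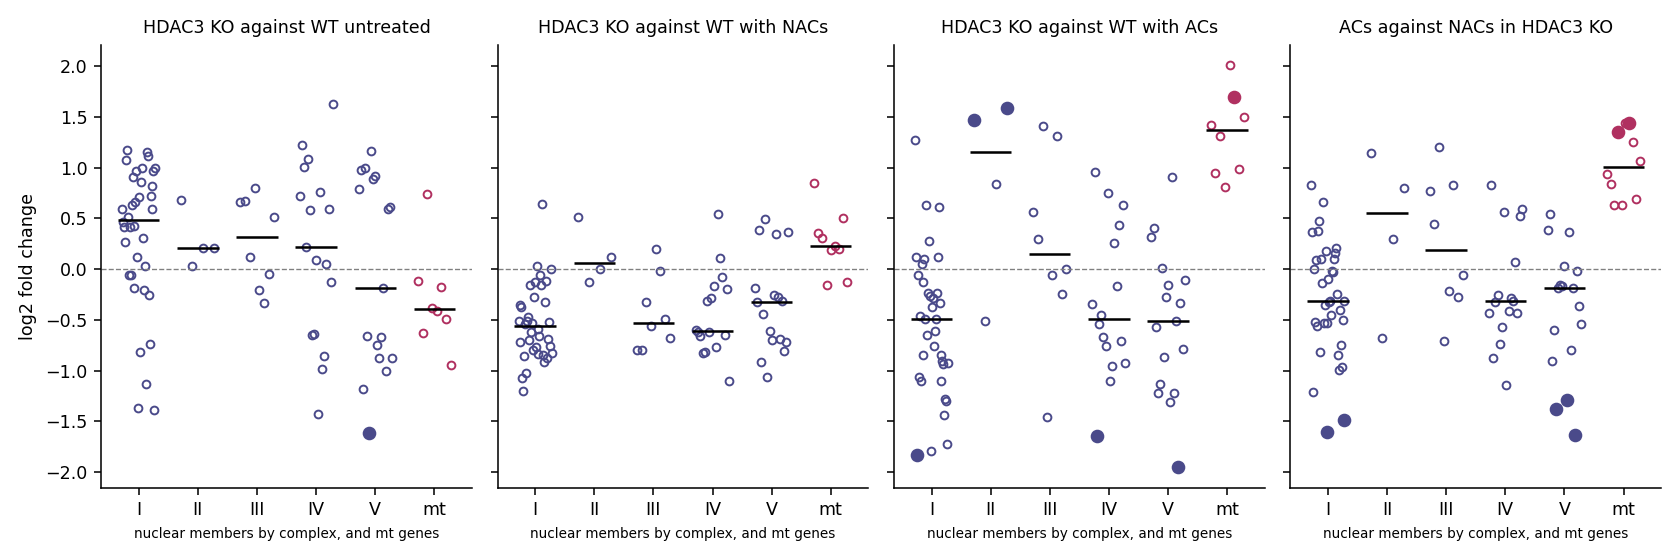
Log2 fold changes of the nuclear members by complex (I to V) and of the mitochondrial members (mt) in 4 comparisons, with filled points for members called at an adjusted p under 0.05 and bars for medians. The mt points lie above 0 in both panels with ACs, with medians of 1.37 and 1.00, and complex II has a median of 1.15 between genotype labels with ACs.

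Within HDAC3 KO libraries, ACs were compared with NACs to separate the response to apoptotic cells from that to any added cell. The mitochondrial genes mt-Nd1 and mt-Nd4 rose, and 5 nuclear members fell, 3 of them in the ATP synthase and 2 in complex I. These are 7 members, where 7.38% of all 12244 genes were called, 2.65% as higher and 4.73% as lower, and the share of members called is near this background. Fibroblast markers moved with this comparison. Their summed level was 8.43 to 48.8 CPM with NACs and 85.9 to 241.7 CPM with ACs, 4 of 9 tested were called higher, and their part in the results was not tested.

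mt-Nd1, which holds part of the quinone site of complex I, was 614, 587 and 374 CPM with NACs and 1564, 957 and 1478 CPM with ACs (log2 fold change 1.35 ± 0.39, adjusted p = 0.0341). mt-Nd4 was 152.5, 152.1 and 111.6 CPM with NACs and 476.0, 399.4 and 242.8 CPM with ACs (1.44 ± 0.39, adjusted p = 0.0236). Both were without overlap, and all 10 mitochondrial members tested had higher means with ACs, with a median of 1.00 against 0.09 for all genes. Those 10 include the uncertain mt-Co3 and mt-Nd4l, which had at most 64 and 39 counts in a library.

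Atp5l was 434.2, 594.2 and 204.8 CPM with NACs and 89.7, 192.0 and 107.5 CPM with ACs, without overlap (-1.64 ± 0.43, adjusted p = 0.0193). Ndufb4 was 65.9, 84.5 and 42.2 CPM against 14.0, 33.7 and 14.4 CPM (-1.60 ± 0.42, adjusted p = 0.0204). Ndufv2, an iron-sulfur subunit of the NADH-oxidising module, was 173.8, 253.9 and 100.6 CPM against 50.9, 95.9 and 37.8 CPM (-1.49 ± 0.42, adjusted p = 0.0309). All 3 were lower in every library with ACs than in any with NACs.

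Atp5h, the stator subunit d of the ATP synthase, was 532.7, 654.9 and 354.4 CPM with NACs and 141.2, 264.9 and 215.5 CPM with ACs, without overlap (-1.29 ± 0.39, adjusted p = 0.0420). Atp5e, the epsilon subunit, was 708.7, 757.8 and 328.2 CPM against 118.8, 360.8 and 201.6 CPM, where replicate 2 with ACs exceeded replicate 3 with NACs (-1.37 ± 0.43, adjusted p = 0.0484). The catalytic subunits did not follow these, Atp5b, the beta subunit, coming to 0.54 ± 0.38 and Atp5a1, the alpha subunit, to 0.38 ± 0.38 without passing. Of 81 nuclear members 54 were lower, with a median of -0.25. In complex II, Sdha came to 1.15 ± 0.38 (adjusted p = 0.060), and its groups did not overlap.

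Leaving out HDAC3 KO replicate 1 with ACs, or replicate 2 with NACs, left 0 members called (0 and 310 of all genes), leaving out replicate 2 with ACs gave 16 (3013 of 12623 genes), replicate 3 with ACs 2 (308 genes), and replicate 1 with NACs 3 (436 genes). Fitting all 18 libraries together left 1 member, mt-Nd4. Of the 6 fits that each left out a library, Atp5l, Ndufb4 and Ndufv2 passed in 3, Atp5e, Atp5h and mt-Nd4 in 2 and mt-Nd1 in 1. Among the 11 alternatives mt-Nd4 passed in 11, Atp5h, Ndufb4 and mt-Nd1 in 10, and Atp5e, Atp5l and Ndufv2 in 8. Atp5l came as near to 0 as -0.78 and Ndufv2 as -0.88. The nuclear median was -0.07 without replicate 2 with NACs, and the mitochondrial median was 0.68 without replicate 2 with ACs and 2.66 with the correction for GC content and length.

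In WT libraries, ACs against NACs gave 0 calls by edgeR among all 11844 genes (0% called, 493 genes at an unadjusted p under 0.05), with 5 nuclear and 0 mitochondrial members with an unadjusted p under 0.05. DESeq2's Wald test also called 0 genes. Of the 82 nuclear members 71 were lower with ACs, with a median of -0.37 against 0.05 for all genes, and 22 of them did not overlap, all lower, against 10.4% of all genes tested, 5.47% higher and 4.88% lower. The nuclear median was -0.21 without WT replicate 1 with NACs and -0.19 with the correction for GC content and length. Ndufa1, a small subunit needed for complex I assembly, had the lowest value, and every library with ACs lay below every library with NACs (adjusted p = 0.898). The mitochondrial median was -0.09, with 2 of 8 members higher. With the correction for GC content and length it turned to 0.12 (5 of 8 higher), and with library totals to 0.13 (6 of 8). It was 0.02 without WT replicate 3 with ACs and -0.32 without WT replicate 1 with ACs. The summed macrophage markers were 11334 to 13451 CPM with ACs and 14275 to 20076 CPM with NACs, and their part was not tested.

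Against untreated libraries, edgeR gave 0 calls with ACs in WT (0% of 12199 genes, 1551 genes at an unadjusted p under 0.05) and 0 calls in HDAC3 KO (0% of 12136 genes, 1761 at an unadjusted p under 0.05), and DESeq2's Wald test called 5 and 15 genes, 0 of them members. Among the members, 5 nuclear and 1 mitochondrial had an unadjusted p under 0.05 in WT, and 26 nuclear and 7 mitochondrial in HDAC3 KO. In WT 7 nuclear members were higher and 3 lower without overlap, where 7.16% and 8.32% of all genes tested were. The mitochondrial members were lower in 8 of 8 in WT, with a median of -0.57, and higher in 10 of 10 in HDAC3 KO, with a median of 1.43. Those 10 include the uncertain mt-Co3, with 21, 64 and 10 counts with ACs and 0, 12 and 10 untreated. They also include the uncertain mt-Nd4l, with 24, 39 and 5 counts with ACs and 3, 5 and 3 untreated. The difference between the WT and HDAC3 KO sets was not tested gene by gene, and the WT median turned to 0.08 with the correction for GC content and length. In HDAC3 KO libraries the summed dendritic cell markers were 400.3 to 659 CPM with ACs and 903 to 992 CPM untreated, and their part was not tested. There 65 of 82 nuclear members were lower with a median of -0.74, and 38 of these did not overlap, against 12.0% of all genes tested that were lower and 9.55% that were higher without overlap, 21.5% in all. The nuclear median was -0.42 without untreated replicate 1 and -0.35 with the correction for GC content and length. The lowest were Cox4i2 at -2.09 ± 0.83, a gene with few counts, and Ndufa11 at -1.71 ± 0.50, and the highest Ndufs1 at 1.36 ± 0.56.

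Untreated libraries separate the genotype label from any added cell. Only Atp5f1 passed, lower in HDAC3 KO libraries, where 11.6% of 12101 genes were called, 3.04% of all tested as higher and 8.56% as lower. Atp5f1, the stator subunit b of the ATP synthase, was 73.1, 45.9 and 58.4 CPM in HDAC3 KO and 213.3, 104.7 and 184.9 CPM in WT libraries, without overlap (-1.61 ± 0.42, adjusted p = 0.0339). Most nuclear members had higher means, 54 of 82 with a median of 0.42 against 0.06 for all genes, and 22 were higher and 6 lower without overlap, where 18.2% and 22.7% of all genes tested did so, 40.9% in all. The mitochondrial median was -0.40, with 7 of 8 lower. Marker sums moved with this comparison, and their part in the results was not tested. Dendritic cell markers were 903 to 992 CPM in HDAC3 KO and 203 to 527 CPM in WT libraries, mostly from Bst2, an interferon-induced gene with a mean of 582 CPM, while Flt3 reached 0.50 CPM. B cell markers were 32.4 to 82.5 against 11.1 to 23.9 CPM, and proliferation genes 292 to 340 against 350 to 584 CPM.

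These untreated values rest on a library that stands apart. Replicate 1 of the HDAC3 KO group had 550 CPM of mt-Co1 where replicates 2 and 3 had 2492 and 2617, and 345 CPM of mt-Nd1 against 1014 and 1669. Without it 24 members were called, of which 7 nuclear were higher and 15 lower, and 5887 of 12714 genes. The nuclear median was then 0.17. With the correction for GC content and length 0 members were called, the nuclear median was 0.22 and the mitochondrial median turned to 1.02. Atp5f1 came as near to 0 as -0.44 among the alternatives (adjusted p up to 0.722) and passed in 1 of 6 fits that each left out a library.

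Across groups the members did not vary together. Atp5e was at or above 708.7 CPM in 9 libraries and at or below 360.8 in the other 9, with no library between. The high libraries are all 3 untreated WT libraries, WT replicates 1 and 2 with NACs, WT replicate 1 with ACs, and in HDAC3 KO replicate 1 untreated and replicates 1 and 2 with NACs. The split thus runs through 4 of the 6 groups. Over the 18 libraries, log2 levels of Cox6b1 followed Atp5e with r = 0.98, Atp5h with 0.97, Atp5l with 0.94 and Ndufb4 with 0.93. Sdha ran the other way at -0.69, as did Atp5b at -0.57 and Atp5a1 at -0.49. These values are descriptions over libraries that share groups and scaling, and the 5 members in the plot of levels ordered by Atp5e were chosen after their values had been seen. In both comparisons with calls that involve ACs in HDAC3 KO libraries, all 3 HDAC3 KO libraries with ACs are among the low 9. Atp5l was called lower in both, and Atp5e, Atp5h, Ndufb4 and Ndufv2 between ACs and NACs in HDAC3 KO. The part of the split in these calls was not tested.

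**Figure D5:**
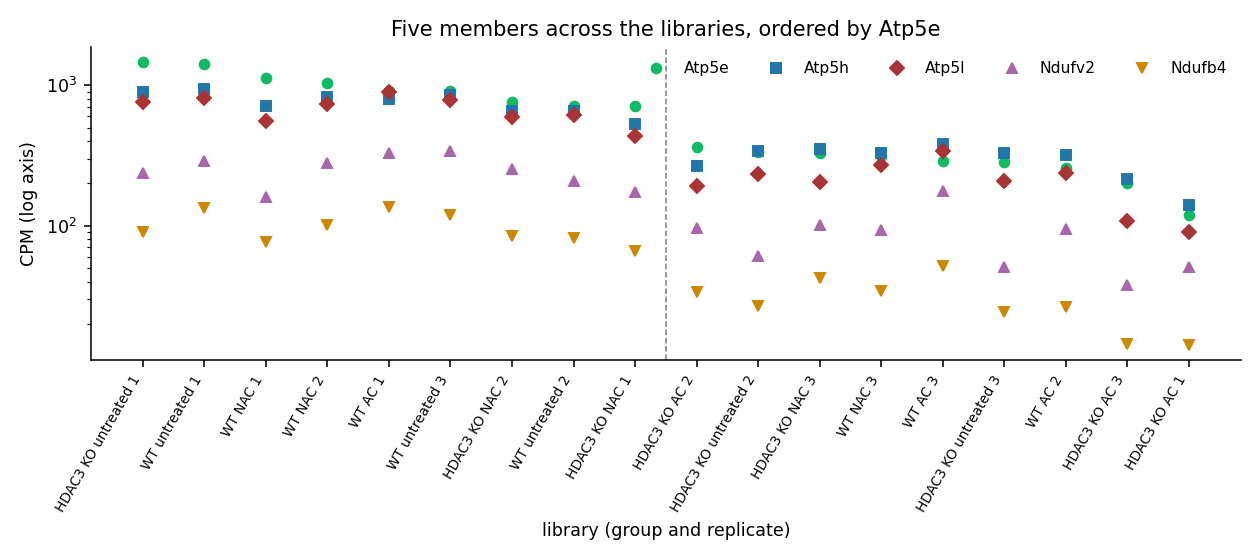
Levels (CPM, log axis) of Atp5e, Atp5h, Atp5l, Ndufv2 and Ndufb4 in the 18 libraries, ordered by Atp5e, with a dashed line at its gap between 360.8 and 708.7 CPM. Libraries of a single group fall on both sides of the line in 4 of 6 groups.

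Genes that serve the complexes were followed in 6 lists. Among 29 tested genes of mitochondrial genome expression, 9 were called lower and 1 higher in untreated HDAC3 KO against WT libraries, where 8.56% and 3.04% of all genes were. They include Pnpt1, a mitochondrial RNA-degrading exonuclease (-3.01 ± 0.45, adjusted p = 0.0183), Tefm, the transcription elongation factor (-2.55 ± 0.48, adjusted p = 0.0183), Tfb2m, an initiation factor (-2.43 ± 0.59, adjusted p = 0.0298), Fastkd2, an RNA-binding protein of mitochondrial RNA granules (-2.15 ± 0.42, adjusted p = 0.0204), and Mterf3, a repressor of mitochondrial transcription (-2.14 ± 0.60, adjusted p = 0.0406). Twnk, the mitochondrial DNA helicase, was higher at 1.72 ± 0.45 (adjusted p = 0.0344). With the correction for GC content and length 0 of 12101 genes passed in this comparison (1930 at an unadjusted p under 0.05), and over all alternatives the values nearest to 0 were -1.77 for Pnpt1, -1.55 for Tefm, -1.30 for Tfb2m, -0.98 for Fastkd2 and -1.03 for Mterf3. Of 6 fits that each left out a library, Pnpt1 passed in 3, Tefm and Tfb2m in 2, and Fastkd2 and Mterf3 in 1.

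Between ACs and NACs in HDAC3 KO libraries 6 of the 29 were called lower and 0 higher, where 4.73% of all genes were called lower. Pnpt1 fell from 20.3 ± 1.76 to 3.82 ± 1.04 CPM (SD, n = 3), which edgeR fitted as -2.39 ± 0.42 on the log2 scale (adjusted p = 0.00131). Fastkd2 fell from 75.6 ± 16.0 to 15.0 ± 3.95 CPM (-2.33 ± 0.40, adjusted p = 0.00107). Tfam, which packages mitochondrial DNA and starts its transcription, had -1.49 ± 0.42 (adjusted p = 0.0289). Tfam passed in 9 of 11 alternatives and in 2 of 6 fits that left out a library (adjusted p up to 0.171). Pnpt1 and Fastkd2 passed in all 11 and in 5 of 6, with values as near to 0 as -1.46 and -1.41. Tefm passed in 7 of 11 and in 2 of 6, and Tfb2m in 7 of 11 and in 1 of 6. These came as near to 0 as -0.88 and -0.85. Fastkd2 was also the only gene of this list called between genotype labels with ACs, at -2.75 ± 0.44 (adjusted p = 0.0100). Pnpt1, Tefm, Tfb2m, Fastkd2 and Tfam were called lower in both comparisons, and the median of the mitochondrial members was 1.00 between ACs and NACs in HDAC3 KO and -0.40 between genotype labels untreated.

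Of 78 mitochondrial ribosome genes, which build the proteins encoded by the 13 mitochondrial members, 4 were called lower with ACs between genotype labels, 7 untreated, and 8 between ACs and NACs in HDAC3 KO, with 0 higher in each. The shares of all genes called lower were 2.96%, 8.56% and 4.73%, so the untreated count is close to its background, as are the untreated counts of assembly factors that follow. Mrpl15 was in all 3 sets, at -1.88 ± 0.40, -1.42 ± 0.38 and -1.62 ± 0.38. Of 44 assembly factors tested, 3 were called lower between ACs and NACs in HDAC3 KO, Ndufaf2, Ndufaf5 and Sdhaf2, and untreated 3 were lower and 1, the heme synthesis enzyme Cox10, higher. Between ACs and NACs, Ndufaf2 and Sdhaf2 passed in 10 of 11 alternatives and Ndufaf5 in 9. Of 6 fits that left out a library, Ndufaf2 passed in 5 and Ndufaf5 and Sdhaf2 in 2. Among 13 tricarboxylic acid cycle genes Ogdh was called higher (1.75 ± 0.46) and Idh3a, Suclg2 and Sucla2 lower in untreated HDAC3 KO libraries, and Idh3a was called lower between ACs and NACs in HDAC3 KO, which held in 6 of 11 alternatives and 1 of 6 fits that left out a library. Of 13 biogenesis regulators tested, Pprc1 and Ppard were called higher and Gabpa and Hif1a lower untreated. These untreated calls of both lists stand beside 3.04% of all genes called higher and 8.56% lower, none passed with the correction for GC content and length, and each passed in 1 of 6 fits that left out a library. Among the alternatives Idh3a came as near to 0 as -0.60, Sucla2 -0.36, Suclg2 -1.31, Ogdh 1.12, Pprc1 0.52, Ppard 0.38, Gabpa -0.64 and Hif1a -0.96. Gabpa fell between ACs and NACs in HDAC3 KO (-1.75 ± 0.42, adjusted p = 0.0128). Among 24 genes of cytochrome c and carriers Coq8b, a coenzyme Q synthesis protein, fell between genotype labels with ACs (-1.79 ± 0.42, adjusted p = 0.0311). No list had a call in the other comparisons.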

How the data were processed

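The authors deposited whole read counts per gene for 18 libraries, without normalization. According to the labels and the study's methods, libraries were made from total RNA with a NEBNext Ultra II kit and sequenced as paired ends. The methods do not say whether mRNA was selected or ribosomal RNA removed. The submitters' processing notes name Trimmomatic 0.36, STAR 2.5.2b, featureCounts, Subread 1.5.2 and GRCm38. The strand setting is not given in the sources used here. Groups were taken from the deposited labels. Gene identifiers were matched to GENCODE M21 (49056 of 49315).

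Every comparison used only the libraries of its groups and was fitted with edgeR 4.0.16 in R 4.3.3 (filterByExpr with minimum count 10 and minimum total 15, TMM, robust quasi-likelihood test, Benjamini-Hochberg over all genes tested, threshold 0.05). SE is the log2 fold change over the square root of F. The p-values measure the spread between these libraries. Alternatives used DESeq2 1.42.0, limma 3.58.1 and mgcv 1.9.3, and the tests were tested on simulated data. Members, gene lists and named genes were chosen with earlier results of these data known. Named were the mitochondrial members, members called, the 3 highest and lowest nuclear members per comparison, the 2 most abundant per complex, tissue-restricted isoforms and, per list, up to 5 called genes. Sdhc, Atp5a1, Atp5b, Twnk, Mrpl15 untreated and the members of the library split were added after their values had been seen.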

Additional observations from a re-analysis of the deposited data

Results flagged for a closer look

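Exposure to ACs against no treatment moved the mitochondrial to nuclear log2 ratio in opposite directions under the genotype labels. Every HDAC3 KO library with ACs lay above every untreated HDAC3 KO library, and every WT library with ACs lay below every untreated WT library, which gives a difference of 2.39 between the changes of 2.04 and -0.35. The difference was not tested. It includes untreated HDAC3 KO replicate 1, without which the HDAC3 KO change was 1.34, and the WT change was 0.39 with the correction for GC content and length. With that correction the HDAC3 KO groups overlapped, replicate 2 with ACs at -1.15 lying below untreated replicates 2 and 3, the latter at 0.005. The WT groups overlapped with counts not divided by length, replicate 2 with ACs at -2.16 lying above untreated replicate 3 at -2.20. They also overlapped with medians of member levels, replicate 3 with ACs at 0.41 lying above untreated replicate 3 at 0.31.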

How the results depend on the processing

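Most values were classed as the same as in the main setting. Among summary values 193 were, with 49 moved and 2 reversed. Among the other values, mostly for single genes, 1830 were, with 302 weaker, 73 stronger, 24 moved and 11 reversed. A ratio difference within the pooled SD of its main value was classed as the same whatever its sign. Of 14 member calls 4 passed in all 11 alternatives, while 0 passed with every library left out in turn. The ratio difference with ACs was 1.21 from medians of member levels and 2.73 with the GC and length correction, which also gave 0.446 with NACs, 0.923 untreated, 2.60 for ACs against NACs in HDAC3 KO, 0.394 for ACs against untreated in WT and 2.29 for the interaction. From medians, the HDAC3 KO log2 ratios were 2.42, 1.03 and 0.91 with ACs and 0.94, 0.12 and 0.65 with NACs. In WT libraries they were 0.19, 0.13 and 0.41 with ACs and -0.30, -0.66 and 0.35 with NACs. The differences for ACs against NACs in HDAC3 KO and for the interaction were therefore smaller than from sums. With NACs the ratio difference was 0.566 without mt-Co1. It was 0.550 without the 7 mitochondrial members that share over 50% of their words with genes elsewhere, an alternative chosen after seeing the data.

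Leaving out libraries in turn gave ratio differences of 1.42 to 2.29 with ACs, 0.785 to 1.19 with NACs, -0.957 to 0.189 untreated, 0.281 to 0.646 and 0.913 to 1.78 for ACs against NACs in WT and HDAC3 KO, -0.460 to -0.269 and 1.34 to 2.48 for ACs against untreated, and 0.464 to 1.33 for the interaction. Members called then numbered 0 to 15 with ACs, 0 to 16 with NACs, 0 to 24 untreated (0 without any library but HDAC3 KO replicate 1), 0 to 16 for ACs against NACs in HDAC3 KO and 0 to 1 for the interaction.

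Members called are given with all genes called in parentheses. With ACs they numbered 14 with no filter (728), 12 with at least 10 counts in every library (788), 20 by DESeq2's Wald test (1373), 10 with all 18 libraries (658) and 28 with the GC and length offset (1292). With NACs they numbered 1 with no filter (575) and 4 by the Wald test (434). Untreated they numbered 2 with DESeq2 size factors (1637), 10 with library totals (2405), 2 with at least 10 counts (1670), 13 by the Wald test (3314), 5 by limma-voom (2348), 12 with all 18 libraries (3308) and 0 with the offset (0). For ACs against NACs in HDAC3 KO they numbered 11 by the Wald test (1430), 1 with all 18 libraries (252) and 20 with the offset (702), and for the interaction 6 (762) and 8 (316) by the Wald test and the offset. The cause was not tested.

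Replicate numbers did not pair the libraries, since correlations of same-numbered deviations ran from -0.33 to 0.487. A replicate block ended the calls of Sdha (adjusted p = 0.077) and Sdhd (adjusted p = 0.0527) with ACs, and gave 4 members untreated (1336) and 1 for ACs against untreated in WT (53). With block and offset there were 16 with ACs (624), 0 untreated (0), 25 for ACs against NACs in HDAC3 KO (1059), 4 for ACs against untreated in WT (119) and 5 for the interaction (158).

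The mitochondrial median turned to 1.02 untreated and 0.0837 for ACs against untreated in WT with the offset, and to 0.715 and 0.0596 with the block too. For ACs against NACs in WT that median turned to 0.117 with the offset, 0.0596 with offset and block, and 0.131 with library totals. The nuclear interaction median was -0.304 with library totals, which put the median of all genes at -0.37 there, -0.42 untreated and 0.31 with NACs. The nuclear interaction median was also -0.0118 with at least 10 counts in every library, and ran from -0.0645 to 0.376 with libraries left out. For ACs against NACs, Atp5f1 in WT was -0.0415 and -0.0601 with the offset without and with the block and ran from -0.36 (without WT replicate 1 with ACs) to 0.643 with libraries left out. Likewise Cox4i2 ran from -0.0665 to 1.76 and Ndufa4l2 from -0.105 to 0.824, both lowest without WT replicate 3 with ACs, and mt-Co3 in HDAC3 KO from -0.0961 (without replicate 2 with ACs) to 1.16. The low counts of mt-Co2, mt-Co3, mt-Atp6, mt-Atp8 and mt-Nd4l limit what can be said of these genes.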
